A study of Mus musculus with 2 samples.

Results

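The vascular endothelial growth factor (VEGF) family was examined in single-cell RNA of the postischemic mouse kidney as 9 genes taken by symbol from the 32285 genes counted: the ligands *Vegfa*, *Vegfb*, *Vegfc* and *Pgf*, the receptors *Flt1*, *Kdr* and *Flt4*, and the co-receptors *Nrp1* and *Nrp2*. All 9 were detected in both libraries. One library came from a *Cre-* control mouse and the other from a *PHDTiEC* littermate that carried Cdh5-CreERT2 with Phd1f/f, Phd2f/f and Phd3f/f alleles, in which a tamoxifen-inducible Cre driven by the endothelial *Cdh5* promoter targets the floxed genes of the oxygen-sensing prolyl hydroxylases PHD1, PHD2 and PHD3. The study used mice of 8 to 10 weeks, clamped 1 renal artery for 25 minutes, gave both genotypes 4 injections of tamoxifen (3 mg per mouse) from the day after surgery and took the injured kidney on day 14. The question was which cells sent and which could receive VEGF signals, and how this differed between the kidneys. Both mice had the same surgery and treatment. Each genotype is 1 mouse, so differences between the libraries could not be set against the spread between animals, no test was run, and the intervals reflect counting error only.

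VEGF ligands are secreted dimers that bind receptor tyrosine kinases on blood and lymphatic vessels. VEGF-A acts mainly through the receptor encoded by *Kdr*, which carries most of the growth and permeability signal, while the receptor encoded by *Flt1* binds VEGF-A, VEGF-B and placental growth factor tightly, signals weakly and is also made as a soluble form that captures ligand. VEGF-C acts through the receptor encoded by *Flt4*, the neuropilins present ligands to the receptors, and in the kidney podocytes and tubules supply VEGF-A to the neighbouring fenestrated capillaries. *Vegfa*, *Pgf* and *Flt1* are known targets of hypoxia-inducible factor (HIF), which the prolyl hydroxylases mark for degradation when oxygen is present.

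The *Cre-* library held 136004367 unique molecular identifiers (UMIs, 1 per captured molecule) and the library labelled *PHDTiEC* held 146758812. After filtering, 8548 and 9309 barcodes remained, with medians of 7500 and 7898 UMIs, and 28 barcodes were kept in both. Clustering without the 9 genes gave 29 clusters, which were named by marker genes with the clusters in view. A name such as mREC-like or cREC-like (medullary or cortical renal endothelial cell) therefore stands for a rebuilt cluster. For each class, a gene's UMIs were added up and divided by the total of that class to give counts per 1000000 UMIs (CPM). Pairs of values below are in the order *Cre-*, *PHDTiEC*, and a log2 ratio is that of CPM, the library labelled *PHDTiEC* over the *Cre-* library, with its exact binomial 95% interval. Levels are compared for 1 gene between classes and not between genes. The endothelial-like cells were 3 clusters: mREC-like (187 and 228 cells, led by *Igfbp3* and *Sox17*), cREC-like (126 and 212 cells, led by *Fabp4*, *Gpihbp1* and *Plvap*) and cluster 23 (88 and 96 cells), which carried all 8 endothelial and all 7 pericyte or smooth muscle markers. Their median depths over both libraries were 7963, 3754.5 and 21862.5 UMIs. Cluster 23 therefore weighs more in the pooled values, which are sums of UMIs, than its number of cells would give. *Flt1* and *Kdr* were also among the 10 leading genes of the mREC-like and the cREC-like cluster, so their being high there is part of what these clusters are.

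Several measures moved with the libraries and touch the results below. The floxed gene *Egln1* had 68.0 and 192 CPM in endothelial-like cells, *Egln3* 24.8 and 153 and *Egln2* 36.9 and 39.6, so no floxed gene was lower under the label of its deletion. Counts per gene cannot tell a transcript without a floxed exon from a whole one, and likewise cannot tell soluble from membrane *Flt1* or the splice forms of *Vegfa*. Endothelial-like cells also held RNA of other types, and more of it in the *Cre-* library for tubule and neutrophil genes. The 5 thick ascending limb markers summed to 409 and 193 CPM and the 5 neutrophil markers to 136 and 49.1 CPM, all of them detected in both libraries. In cREC-like cells the thick ascending limb markers summed to 1377 and 239 CPM and the neutrophil markers to 302 and 109 CPM. The 7 macrophage markers summed to 704 and 1331 CPM in the same cells. In cluster 23 the thick ascending limb markers went the other way, with 77.0 and 379 CPM. cREC-like cells also held the glomerular endothelial gene *Ehd3* (461 and 704 CPM). No cluster was led by podocyte or lymphatic markers, and the lymphatic genes *Prox1* (2.64 and 2.07 CPM), *Lyve1* (1.22 and 0.52 CPM) and *Mmrn1* (0 and 2 UMIs) were at or near 0 in endothelial-like cells. Doublets were not removed. The caller that was run marked none, at thresholds that only 0.37% and 0.15% of its simulated doublets passed. Its result therefore cannot say whether doublets were present.

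**Figure D1:**
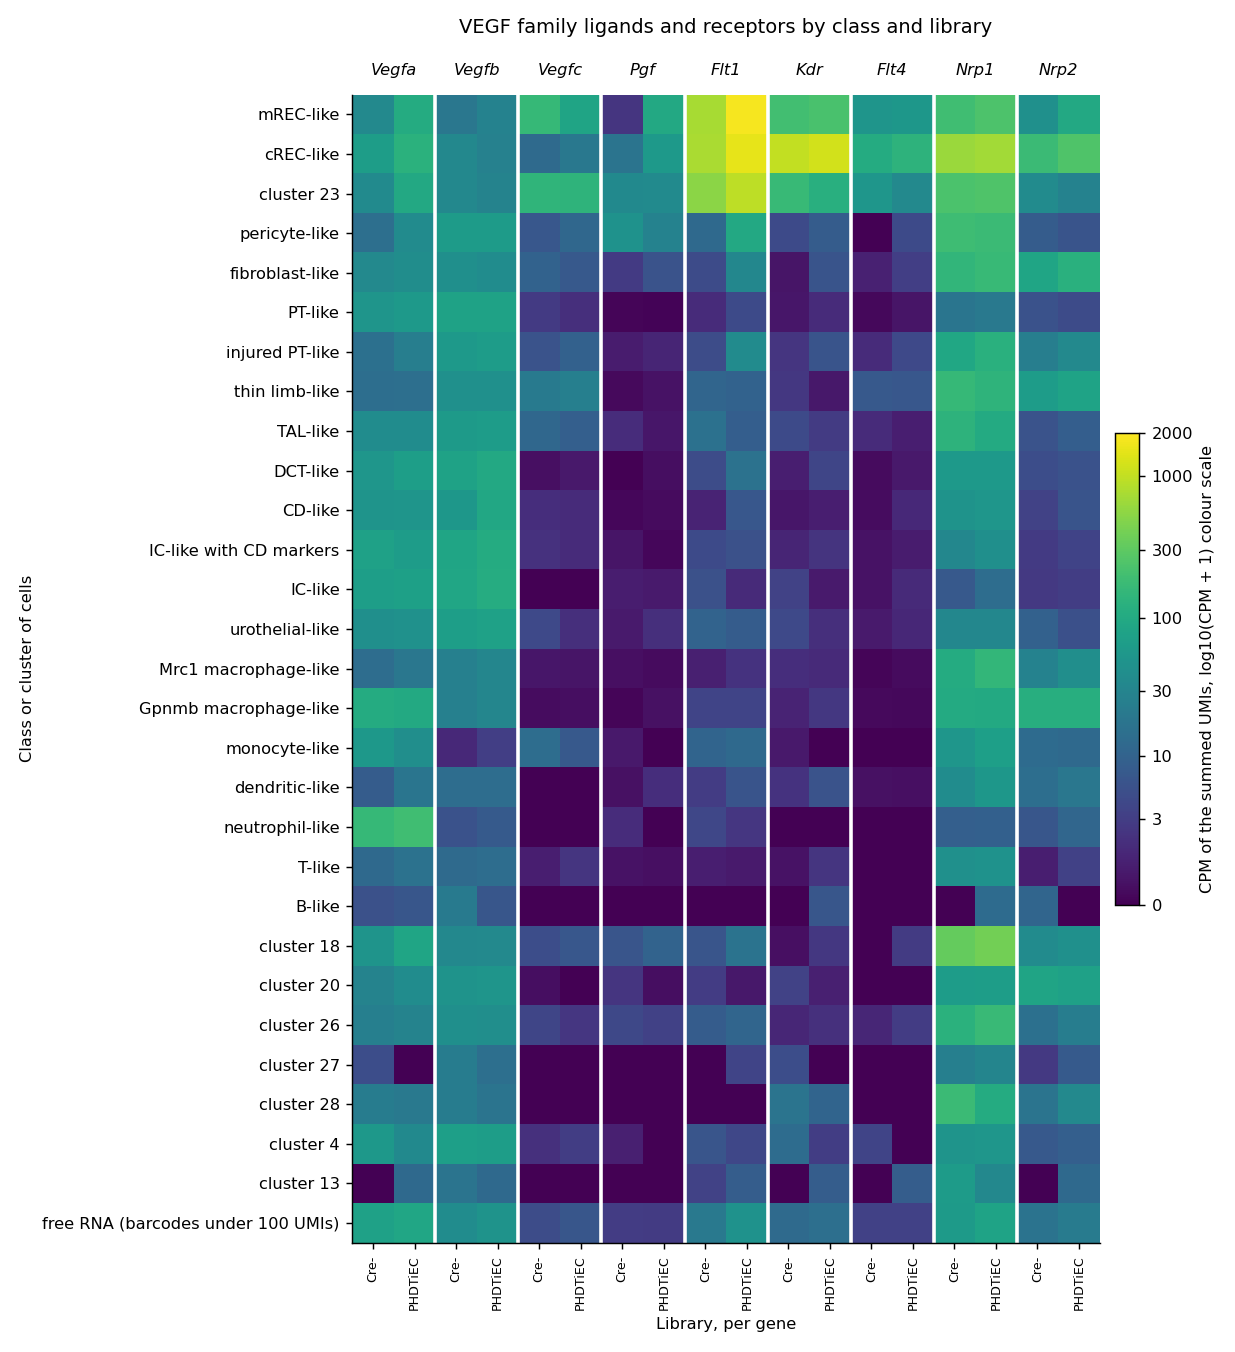
Colour gives the CPM of each of the 9 genes (columns in pairs, *Cre-* left and *PHDTiEC* right, log scale) in each class or cluster of cells (rows), with RNA from barcodes under 100 UMIs in the last row. *Flt1*, *Kdr* and *Flt4* are high in the 3 endothelial-like rows at the top, while *Vegfa*, *Vegfb* and *Nrp1* appear in most rows. The highest values of *Vegfc* are in endothelial-like rows, and those of *Pgf* in endothelial-like and pericyte-like rows.

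*Vegfa* (ENSMUSG00000023951, chromosome 17 of GRCm38 from 46016993 to 46032369), the main growth factor for blood capillaries, was found in nearly every class, and its highest level was not in a tubular class. Neutrophil-like cells held 162 CPM (95% Poisson interval 140 to 186) and 192 CPM (169 to 218). Among macrophages, the *Gpnmb* macrophage-like class, which is led by *Mmp12*, *Arg1* and *Gpnmb*, held 107 and 99.9 CPM and the *Mrc1* macrophage-like class 14.2 and 19.4 CPM. The level in the first was thus several times that in the second in both kidneys, and 40.3% and 39.1% of *Gpnmb* macrophage-like cells had a *Vegfa* UMI. In T-like cells, which served as a background for free RNA, 2.92% and 3.87% of cells had one, at median depths of 3151 and 3274.5 UMIs against 13540 and 13272.5 for *Gpnmb* macrophage-like cells. Barcodes under 100 UMIs held *Vegfa* at 75.9 and 88.1 CPM, so free RNA carried it at a level above that of most classes.

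In tubular classes of the *Cre-* library, *Vegfa* was highest in intercalated cells. The IC-like class with collecting duct markers had 76.4 and 65.5 CPM and the IC-like class 70.3 and 74.7 CPM, and the intervals of these 2 classes overlapped in the *Cre-* library (72.4 to 80.5 and 59.9 to 81.9). PT-like cells (proximal tubule) had 51.5 and 60.2 CPM, DCT-like cells (distal convoluted tubule) 52.6 and 69.7, CD-like cells (collecting duct) 49.5 and 51.6 and TAL-like cells (thick ascending limb) 39.0 and 39.5. In the library labelled *PHDTiEC*, the intervals of IC-like (60.8 to 90.8), DCT-like (64.4 to 75.4) and IC-like cells with collecting duct markers (62.03 to 69.05) overlapped. Injured PT-like cells, marked by *Havcr1* and *Vcam1*, stood lower, at 15.7 and 24.6 CPM, beside thin limb-like cells at 14.8 and 15.1 CPM. Between the libraries the tubular levels differed little: the log2 ratio ran from -0.22 (-0.33 to -0.11) in the IC-like class with collecting duct markers to 0.64 (0.30 to 0.99) in injured PT-like cells. Cluster 18, which is led by *Stc2*, *Igfbp2* and *Foxd1*, held all 6 podocyte and all 4 parietal markers, each in at least 10% of its cells. It had 50.8 and 86.5 CPM, which is a log2 ratio of 0.77 (0.47 to 1.07).

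Counted as molecules rather than as levels, 61.2% and 55.2% of the *Vegfa* UMIs came from tubular clusters, close to the 60.0% and 58.0% of all UMIs that these clusters held. Immune clusters gave 28.1% and 26.9%, and *Gpnmb* macrophage-like cells alone 18.1% and 16.8%, while they held 8.29% and 9.32% of all UMIs. The endothelial-like clusters gave 3.67% (3.20 to 4.18) and 8.51% (7.89 to 9.18), while their share of all UMIs was 4.16% and 4.38%. These shares depend on how many cells of a type were captured, and fewer cells of a type and less RNA per cell cannot be told apart.

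**Figure D2:**
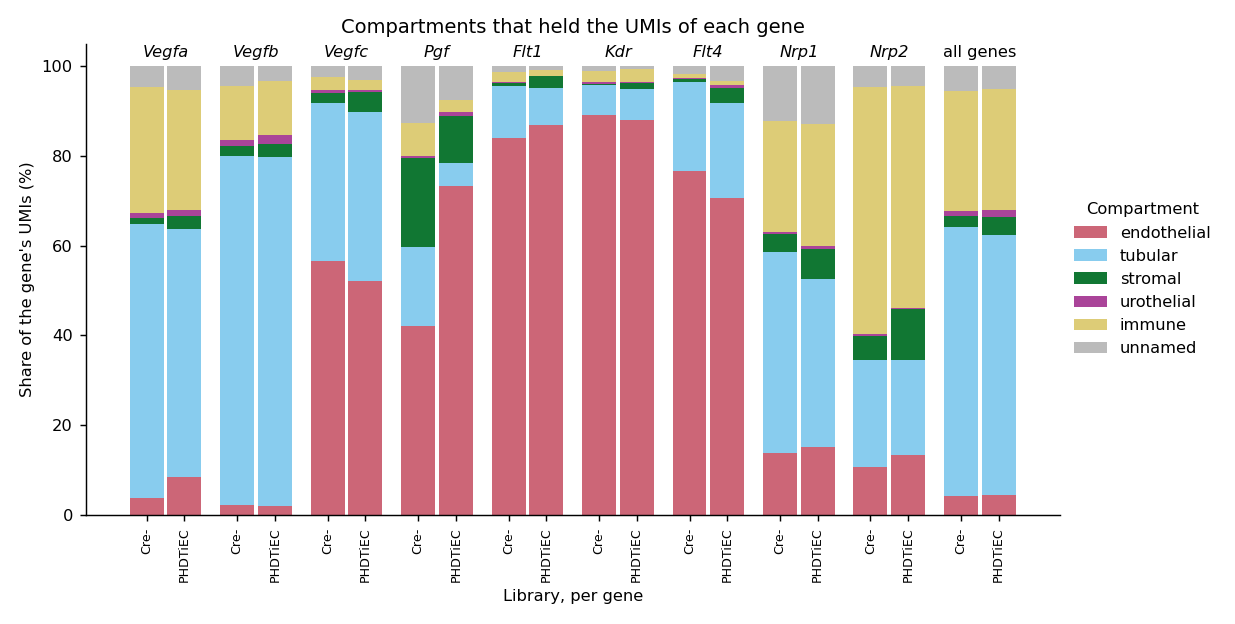
Stacked bars give the percentage of each gene's UMIs that came from endothelial, tubular, stromal, urothelial, immune and unnamed clusters in the *Cre-* library (left bar of a pair) and the library labelled *PHDTiEC* (right bar), with all genes together as the last pair. The endothelial part of *Pgf* is 41.99% and 73.3%, that of *Vegfa* 3.67% and 8.51%, and *Flt1*, *Kdr* and *Flt4* are mostly endothelial in both libraries.

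Within endothelial-like cells, *Vegfa* was the ligand whose difference between the libraries appeared in all 3 clusters. The pooled level was 43.0 and 108 CPM (212 and 626 UMIs), a log2 ratio of 1.33 (1.10 to 1.56). The mREC-like level was 35.2 and 106 CPM, the cREC-like level 67.0 and 126 CPM, and the cluster 23 level 37.3 and 98.4 CPM. The 3 ratios were 1.59 (1.19 to 2.01), 0.91 (0.50 to 1.33) and 1.40 (1.01 to 1.80), and all were above 0 by more than the counting error. In the library labelled *PHDTiEC*, the cREC-like, mREC-like, *Gpnmb* macrophage-like and cluster 23 levels followed that of neutrophil-like cells in the order of the classes. The mREC-like interval (93.7 to 119) overlapped those of the other 3, while the cREC-like interval (107 to 147) lay above that of *Gpnmb* macrophage-like cells (94.4 to 106). A UMI of *Vegfa* was seen in 23.4% and 38.8% of endothelial-like cells, and in 6.03% and 14.2% once each cell was thinned to 2000 UMIs (53 and 64 shallower cells left out), against 2.32% and 2.54% of thinned T-like cells.

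Most endothelial-like UMIs, those of *Vegfa* included, lay in barcodes that also carried RNA of another cell type. Of the 401 and 536 endothelial-like cells, 300 and 380 had a UMI of at least 1 of 7 genes that mark other types (*Ptprc*, *Lyz2*, *C1qa*, *Rgs5*, *Slc34a1*, *Slc12a1* and *Aqp2*), and these cells held 90.5% and 86.0% of all endothelial-like UMIs. Of the *Vegfa* UMIs, 206 of 212 and 534 of 626 lay in them. In the 101 and 156 cells without such a UMI, *Vegfa* had 6 and 92 UMIs (12.8 and 113 CPM), a log2 ratio of 3.14 (1.96 to 4.62), and in the cells with one the log2 ratio was 1.21 (0.98 to 1.45). The cells without such a UMI were shallower, with medians of 3254 and 3457.5 UMIs against 11306.5 and 10173.5 in the others. The direction was the same in cells with and without these genes, and the size of the difference was larger in the cells without them. These 7 genes were chosen after the values had been seen.

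*Vegfb* (ENSMUSG00000024962, chromosome 19 from 6982473 to 6987651), a ligand of *Flt1* with a weak effect on vessel growth, came mostly from tubular clusters. These gave 77.9% and 78.0% of its UMIs, beside 60.0% and 58.0% of all UMIs. Its level was not particular to the tubule. Urothelial-like cells had 69.9 and 76.8 CPM and pericyte-like cells 63.1 and 63.7, beside 61.5 and 66.4 in TAL-like cells. The level was 88.2 and 111 CPM in IC-like cells, 85.9 and 106 CPM in the IC-like class with collecting duct markers, 79.2 and 79.7 CPM in PT-like cells and 77.9 and 98.4 CPM in DCT-like cells. The intervals of IC-like cells (76.6 to 101 in the *Cre-* library) overlapped those of the next 3 classes there, so these do not differ beyond counting error in that library. The largest difference between the libraries was in CD-like cells, with 54.4 and 93.4 CPM (387 and 736 UMIs) and a log2 ratio of 0.78 (0.60 to 0.96). Endothelial-like cells held 28.4 and 28.1 CPM, which is a log2 ratio of -0.02 (-0.35 to 0.32), so a 2-fold difference lies outside the counting interval of the pooled cells. That value joins 0.53 (-0.07 to 1.17) in mREC-like cells, where 2-fold lies inside the interval, with -0.31 (-1.02 to 0.40) in cREC-like cells and -0.21 (-0.74 to 0.31) in cluster 23. Neutrophil-like cells, highest for *Vegfa*, were near the bottom for *Vegfb* with 7 and 10 UMIs (5.73 and 7.63 CPM).

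*Vegfc* (ENSMUSG00000031520, chromosome 8 from 54077606 to 54187096), the ligand of *Flt4* and a growth factor for lymphatic vessels, came mainly from mREC-like cells and cluster 23. Endothelial-like clusters, with 4.69% and 5.76% of the cells, gave 56.6% and 52.1% of its UMIs. mREC-like cells had 162 and 84.3 CPM, cluster 23 had 145 and 140 CPM, and cREC-like cells 13.02 and 20.1 CPM. In mREC-like cells the log2 ratio was -0.94 (-1.20 to -0.68), in cluster 23 -0.06 (-0.30 to 0.18) and in cREC-like cells 0.62 (-0.37 to 1.68), so the lower value under the *PHDTiEC* label was seen in 1 of the 3 clusters. Within mREC-like cells it lay in the 175 and 202 cells without a UMI of the descending vasa recta gene *Slc14a1* (173 and 78.8 CPM), while the 12 and 26 cells with one had 68.2 and 115 CPM from 13 and 44 UMIs. Outside the endothelium, thin limb-like cells had 21.4 and 25.6 CPM, above free RNA (4.77 and 6.74 CPM). TAL-like cells had 11.8 and 8.94 CPM, and tubular clusters together gave 35.2% and 37.7% of the UMIs.

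*Pgf* (ENSMUSG00000004791, chromosome 12 from 85166635 to 85177790), which encodes placental growth factor, a ligand of *Flt1*, was the rarest ligand. It had 231 and 535 UMIs over all cells, and its senders differed between the libraries. In the *Cre-* kidney pericyte-like cells held the highest level, 47.1 CPM (33.8 to 63.9), followed by cluster 23 with 35.4 CPM (27.8 to 44.5) and cREC-like cells with 17.7 CPM (10.6 to 27.6). In the library labelled *PHDTiEC* the order was mREC-like with 96.1 CPM (84.5 to 109), cREC-like with 58.7 CPM (46.2 to 73.5), cluster 23 with 36.5 CPM (28.6 to 46.0) and pericyte-like with 27.8 CPM (18.9 to 39.5). The intervals of pericyte-like cells and cluster 23 overlapped in both libraries, and no other neighbours in these orders did. The endothelial share of *Pgf* UMIs was 41.99% (35.6 to 48.6) and 73.3% (69.3 to 77.0), and the stromal share 19.9% and 10.47%.

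The mural level of *Pgf* was not higher in the library labelled *PHDTiEC*. Pericyte-like cells had a log2 ratio of -0.76 (-1.48 to -0.05) and cluster 23, which carries both endothelial and mural genes, 0.04 (-0.44 to 0.53), against 1.73 (0.99 to 2.54) in cREC-like cells and 5.40 (4.03 to 7.29, from 4 and 244 UMIs) in mREC-like cells. In the library labelled *PHDTiEC*, the transcript was concentrated in few cells: 37 of 228 mREC-like cells (16.2%) had a UMI, 1 cell held 12.3% of them, and the 23 cells with most held 91.8%. For *Vegfa* the 23 highest of the same cells held 52.0%. cREC-like cells with a *Pgf* UMI were about as frequent in both libraries (9.52% and 8.02%), with 1 cell holding 19 of the 76 UMIs in the library labelled *PHDTiEC*. T-like cells had 1 *Pgf* UMI in each library, in 0.17% and 0.14% of cells. In cREC-like cells the level was higher without an *Ehd3* UMI (39.4 and 95.6 CPM) than with one (9.08 and 35.3 CPM).

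**Figure D3:**
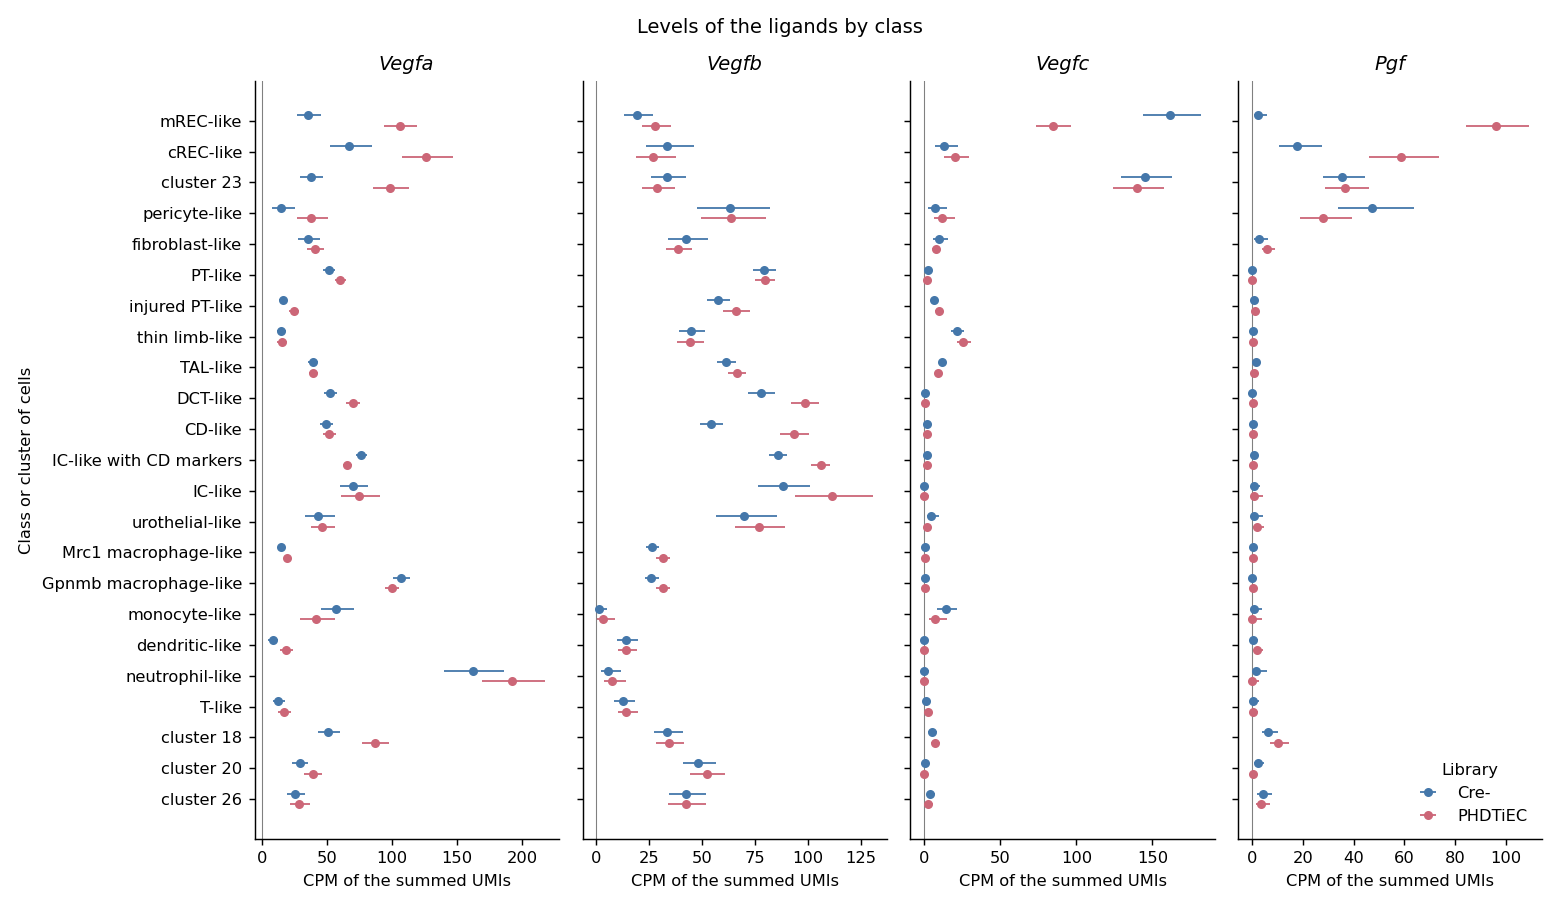
Points give the CPM of the 4 ligands (panels, each with its own linear axis from 0) in the named classes and the larger unnamed clusters, with exact Poisson 95% intervals as lines, blue for the *Cre-* library and red for the library labelled *PHDTiEC*. *Vegfa* stands apart between the libraries in the 3 endothelial-like classes at the top, *Vegfc* in mREC-like cells, *Pgf* in mREC-like and cREC-like cells and *Vegfb* in CD-like cells.

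*Flt1* (ENSMUSG00000029648, chromosome 5 from 147561604 to 147726011), the receptor shared by VEGF-A, VEGF-B and placental growth factor, was endothelial, with 84.0% and 86.9% of its 3830 and 9568 UMIs in the endothelial-like clusters. The level was 743 and 1777 CPM in mREC-like cells, 751 and 1513 CPM in cREC-like cells and 527 and 934 CPM in cluster 23. The *Cre-* intervals of mREC-like (703 to 784) and cREC-like cells (701 to 805) overlapped, while in the library labelled *PHDTiEC* the mREC-like level (1726 to 1830) was the higher of both. The log2 ratios were 1.26 (1.17 to 1.35), 1.01 (0.89 to 1.13) and 0.83 (0.72 to 0.93), and the pooled ratio was 1.13 (1.07 to 1.19) from 3217 and 8310 UMIs. Unlike *Pgf*, the difference was spread over many cells, with 68.7% and 82.4% of thinned endothelial-like cells holding a UMI and 1 cell holding at most 1.69% of the UMIs. The strictest subset, the cells with no UMI of the 7 genes of other types, had 824 and 1668 CPM, which is a log2 ratio of 1.02 (0.85 to 1.18).

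*Kdr* (ENSMUSG00000062960, chromosome 5 from 75932827 to 75978458), the main signalling receptor for VEGF-A, was a capillary gene. cREC-like cells held 990 and 1205 CPM, mREC-like cells 197 and 225 and cluster 23 169 and 120. The endothelial-like clusters gave 89.2% and 88.02% of all *Kdr* UMIs. The log2 ratio was 0.28 (0.17 to 0.40) in cREC-like cells, 0.19 (-0.01 to 0.39) in mREC-like cells and -0.50 (-0.74 to -0.26) in cluster 23. The pooled value of 0.19 (0.10 to 0.28), from 358 and 408 CPM, joins clusters that differed in direction, and its interval excludes a 2-fold difference. *Kdr* per *Cdh5* UMI, which does not depend on the class total, was 0.58 and 0.61, while *Flt1* per *Cdh5* UMI was 1.06 and 2.13.

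The cREC-like value of *Kdr* moved most with the cells that were counted. cREC-like cells with an *Ehd3* UMI (45 and 80 cells) had 1170 and 1541 CPM and those without one 532 and 675 CPM. In cREC-like cells with no UMI of the 7 genes of other types (52 and 78 cells, 83 and 259 UMIs), *Kdr* had 443 and 1012 CPM, which is a log2 ratio of 1.19 (0.83 to 1.57), compared with 0.28 over all cREC-like cells. In the mREC-like cells chosen in the same way it had 192 and 206 CPM, which is a log2 ratio of 0.10 (-0.38 to 0.59). Whether the mix of glomerular and peritubular cells differed between the libraries was not tested.

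*Flt4* (ENSMUSG00000020357, chromosome 11 from 49609263 to 49652739), the receptor of VEGF-C, was found in blood vessel endothelium here, where the lymphatic genes were at or near 0. cREC-like cells had 108 and 134 CPM, mREC-like cells 51.1 and 55.2 and cluster 23 52.6 and 35.0, and thin limb-like cells followed with 7.28 and 6.78 CPM. The pooled log2 ratio was 0.04 (-0.18 to 0.26). In cluster 23 it was -0.59 (-1.04 to -0.14), the direction of *Kdr* in the same cells, and *Plvap*, a marker of fenestrated capillaries, was also lower there, with 204 and 89.8 CPM. The 7 pericyte or smooth muscle markers summed to 7024 and 9509 CPM in cluster 23 and the 8 endothelial markers to 3969 and 3702 CPM, and their part in these values was not tested. *Flt4* and its ligand *Vegfc* were thus highest in different endothelial-like clusters, the receptor in cREC-like and the ligand in mREC-like cells and cluster 23.

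*Nrp1* (ENSMUSG00000025810, chromosome 8 from 128358604 to 128503363), a co-receptor for VEGF-A and for class 3 semaphorins, was the most widespread of the receptors. cREC-like cells held 632 and 694 CPM, followed by cluster 18 with 333 and 399 CPM. Next came cluster 23 with 229 and 243 CPM, mREC-like cells with 195 and 241 and pericyte-like cells with 187 and 178, 3 classes whose *Cre-* intervals overlapped from one to the next. Of its UMIs, 13.9% and 15.01% were endothelial, 44.6% and 37.6% were tubular and 24.8% and 27.2% immune. In the tubule it was high in thin limb-like (164 and 140 CPM), TAL-like (137 and 103 CPM) and injured PT-like cells (92.3 and 125 CPM) and low in PT-like (18.1 and 20.4 CPM) and IC-like cells (7.28 and 14.2 CPM). The endothelial log2 ratio was 0.17 (0.07 to 0.27). In cREC-like cells it was 0.13 (-0.01 to 0.28), and 0.96 (0.49 to 1.45) over those with no UMI of the 7 genes of other types (277 and 539 CPM). TAL-like cells had a ratio of -0.41 (-0.51 to -0.31) and *Mrc1* macrophage-like cells 0.49 (0.38 to 0.60).

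*Nrp2* (ENSMUSG00000025969, chromosome 1 from 62703285 to 62818695), a co-receptor for VEGF-C and semaphorins, was largely immune, with 55.1% and 49.5% of its UMIs in immune clusters. *Gpnmb* macrophage-like cells had 116 and 118 CPM and *Mrc1* macrophage-like cells 28.4 and 41.2 CPM, the same order as for *Vegfa*. The highest level was in cREC-like cells, 175 and 244 CPM, and fibroblast-like cells had 85.6 and 123 CPM. In endothelial-like cells the log2 ratio was 0.60 (0.41 to 0.80), made up of 1.14 (0.77 to 1.53) in mREC-like cells (43.7 and 96.5 CPM), 0.48 (0.22 to 0.75) in cREC-like cells and -0.43 (-0.95 to 0.08) in cluster 23. It came to 0.11 (-0.30 to 0.54) over the cells with no UMI of the 7 genes of other types, and to 1.66 (0.73 to 2.72) over the mREC-like cells among them. Fibroblast-like cells had a ratio of 0.53 (0.27 to 0.79).

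**Figure D4:**
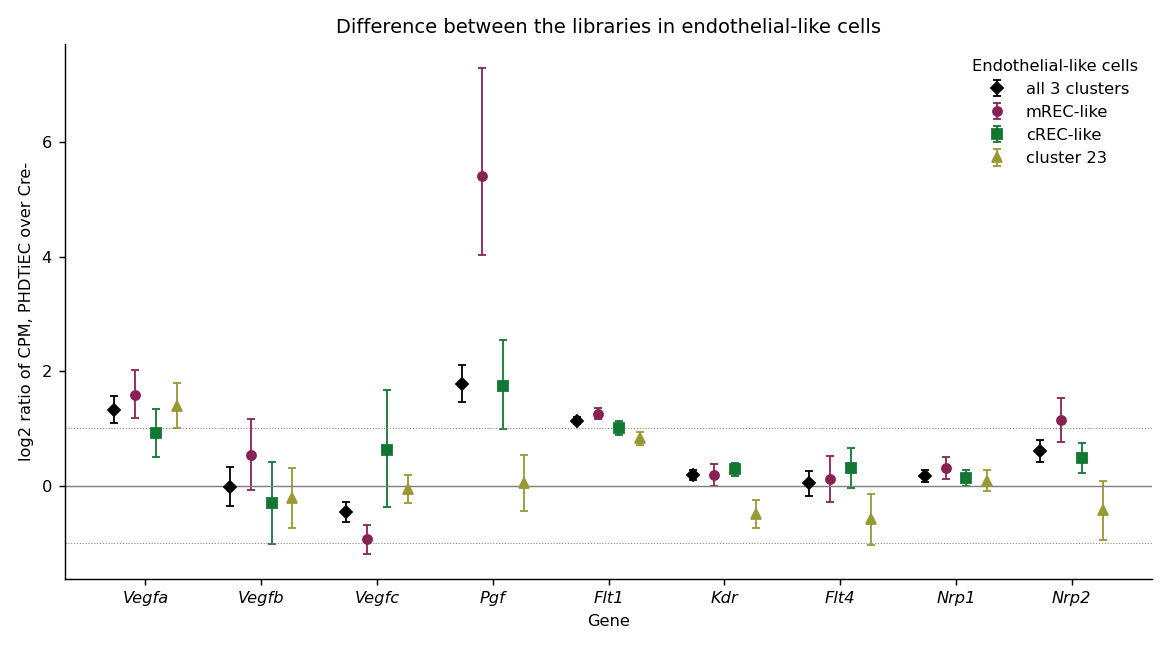
Points give the log2 ratio of CPM, the library labelled *PHDTiEC* over the *Cre-* library, for the 9 genes (horizontal axis) in all 3 endothelial-like clusters together and in each, with exact binomial 95% intervals; dotted lines mark 2-fold. *Vegfa*, *Pgf* and *Flt1* lie above the upper line in the pooled cells, *Kdr*, *Flt4* and *Nrp1* lie near 0, and *Vegfc* lies below 0 in mREC-like cells.

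In the pooled endothelial-like cells, 3 of the 9 genes (*Vegfa*, *Pgf* and *Flt1*) were at least 2-fold higher in the library labelled *PHDTiEC* and 0 were at least 2-fold lower. Among 12570 genes that had 20 UMIs or more in all, 2.02% were at least 2-fold higher and 2.80% at least 2-fold lower. The same count was 4 of 9 in mREC-like cells, where *Nrp2* joined (background 3.14%, and 2.49% lower), 2 of 9 in cREC-like cells, *Pgf* and *Flt1* (3.29%, and 4.78% lower), and 1 of 9 in cluster 23, *Vegfa* (2.50%, and 2.66% lower), with 0 lower in each. The median over the 9 genes was 0.19 in the pooled cells and 0.53 in mREC-like cells, beside -0.02 and 0.01 over all genes tested. The receptor *Flt1* and 2 of its ligands were thus higher, while *Kdr*, *Flt4* and *Nrp1* were within 0.19 log2 units of 0 in the pooled cells. Over the cells with no UMI of the 7 genes of other types, *Kdr* and *Nrp1* came to 0.65 and 0.59, and *Pgf* to 3.08 from 8 and 118 UMIs. As a mean over cells of counts per 10000, the ratio of *Flt1* was 0.98, which is below 2-fold and leaves 2 of the 9 genes past it. Without cluster 23 the pooled ratio of *Pgf* was 3.36, against 1.78 with it, and that of *Vegfc* was -0.75, against -0.46.

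HIF binds a short core, ACGTG or GCGTG, which reads CACGT or CACGC on the other strand. RefSeq promoter windows on GRCm38.p6, from 250 bases before to 50 bases after each start, were found for all 9 genes (11 windows). The core was present in at least 1 window of 7 of the 9 genes, beside 46.7% of 27025 genes and 43.8% of 32851 windows of this length. The bases before the start are printed for the 3 genes at least 2-fold higher in the pooled endothelial-like cells (*Flt1*, *Vegfa* and *Pgf*) and for *Kdr*, with the core in capitals. For *Pgf* only the core and its flanks are shown, because an exon of the gene covers the window. All 4 are on the minus strand of the build and are written in the direction of transcription.

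*Flt1*, chr5:147726012-147726261: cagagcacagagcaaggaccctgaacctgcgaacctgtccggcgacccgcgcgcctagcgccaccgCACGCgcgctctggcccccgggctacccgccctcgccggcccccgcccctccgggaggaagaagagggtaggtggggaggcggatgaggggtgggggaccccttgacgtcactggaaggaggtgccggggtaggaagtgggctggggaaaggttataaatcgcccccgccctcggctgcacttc
*Kdr*, chr5:75978459-75978705: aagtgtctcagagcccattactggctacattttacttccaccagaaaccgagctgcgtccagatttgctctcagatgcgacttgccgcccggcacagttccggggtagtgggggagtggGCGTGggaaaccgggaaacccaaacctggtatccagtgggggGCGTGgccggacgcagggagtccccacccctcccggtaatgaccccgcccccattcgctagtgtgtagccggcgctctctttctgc
*Vegfa*, chr17:46032378-46032627: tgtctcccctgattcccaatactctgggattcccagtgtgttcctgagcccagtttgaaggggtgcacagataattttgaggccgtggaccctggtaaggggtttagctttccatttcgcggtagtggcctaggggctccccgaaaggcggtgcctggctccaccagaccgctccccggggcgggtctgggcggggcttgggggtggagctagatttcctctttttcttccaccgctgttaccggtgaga
*Pgf*, chr12:85177421-85177449: gccctgcggggtCACGCgcactcaggtct

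The core lay 184 bases before the start of *Flt1*, 124 before that of *Pgf*, and 131 and 89 before that of *Kdr*. The *Vegfa* bases shown hold none, while a second window at a start inside the gene (chr17:46025114-46025413) holds 2. *Vegfb* and *Nrp2* also had 2 matches each, *Nrp1* had 1, and *Vegfc* and *Flt4* had none. The letters were thus present before genes that differed between the libraries (*Flt1* and *Pgf*) and before genes within 0.19 log2 units of 0 in the pooled endothelial-like cells (*Kdr*, *Vegfb* and *Nrp1*). A match describes these letters only and is not a measured binding site.

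*Flt1* was also higher outside the endothelium in the library labelled *PHDTiEC*, together with other endothelial RNA. Pericyte-like cells had 12.6 and 98.7 CPM (11 and 110 UMIs), fibroblast-like cells 4.67 and 32.4 CPM and injured PT-like cells 4.90 and 38.0 CPM, log2 ratios of 2.97 (2.07 to 4.01), 2.79 (1.83 to 3.95) and 2.95 (2.46 to 3.49). Of all genes, 7.14%, 4.07% and 3.44% were at least 2-fold higher in these classes. In pericyte-like cells under that label, 1 cell held 50 of the 110 UMIs. *Cdh5*, a junction gene of endothelial cells, went the same way in these classes, with 9 and 30, 2 and 43, and 52 and 120 UMIs. Free RNA held *Flt1* at 20.5 and 46.5 CPM and *Cdh5* at 17.4 and 19.2 CPM. In the library labelled *PHDTiEC*, *Flt1* UMIs per *Cdh5* UMI were 3.67 in pericyte-like, 3.16 in fibroblast-like and 2.13 in injured PT-like cells, beside 2.13 in endothelial-like cells. In TAL-like cells both genes were lower under that label (*Flt1* 16.1 and 8.64 CPM). The part of endothelial RNA in these non-endothelial values was not tested.

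**Figure D5:**
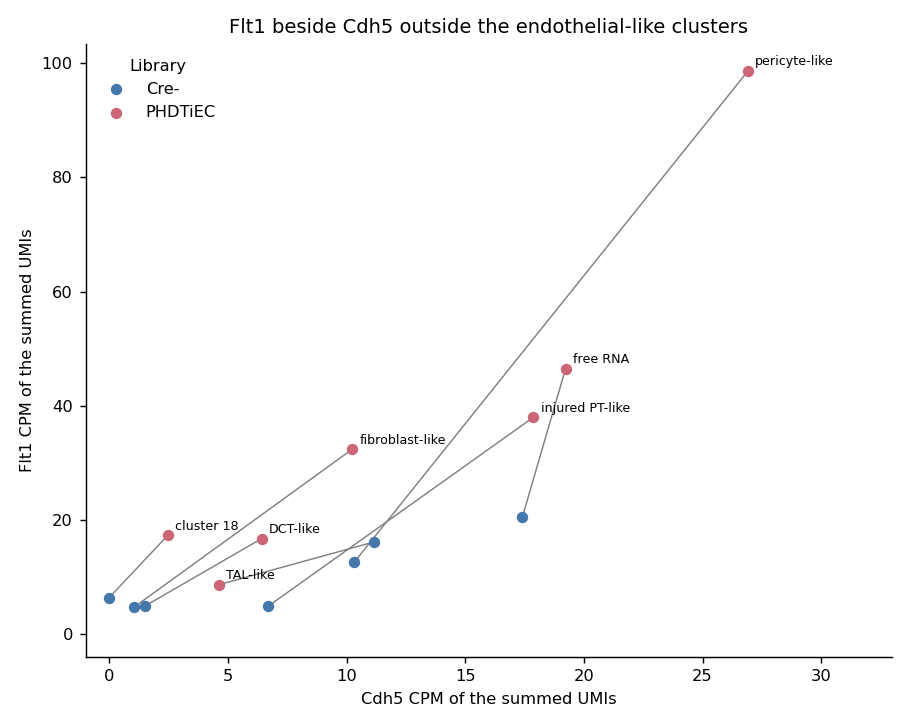
Each line joins the *Cre-* (blue) and *PHDTiEC* (red) values of 1 class outside the endothelial-like clusters, or of free RNA, with the CPM of *Cdh5* on the horizontal and of *Flt1* on the vertical axis. In pericyte-like, fibroblast-like, injured PT-like and DCT-like cells and in cluster 18 both genes are higher in the library labelled *PHDTiEC*, in TAL-like cells both are lower, and in free RNA *Flt1* differs more than *Cdh5*.

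Few other genes of the pathway differed by 2-fold in the pooled endothelial-like cells, where 2.02% of all genes tested were higher and 2.80% lower. Of the 26 genes of VEGF receptor signalling (kinases, adaptors and junction partners such as *Plcg1*, *Akt1*, *Nos3* and *Ptprb*), 1 was at least 2-fold higher, 0 lower and the median log2 ratio was 0.07. That gene was *Sh2d2a*, an adaptor that binds the activated *Kdr* receptor, at 2 and 26 UMIs. *Nos3*, the endothelial nitric oxide synthase, had 139 and 160 CPM and *Plcg1*, the phospholipase bound by the receptor, 57.7 and 57.2 CPM. Of 10 tested semaphorins and plexins, the partners of the neuropilins, 1 was higher (*Sema3a*, 1 and 45 UMIs) and 1 lower (*Sema3c*, 67 and 29 UMIs), with a median of 0.03. *Sema3a* was an mREC-like transcript, with 0 and 33 UMIs there. Of 9 tested genes for ligand processing and matrix binding, 0 were higher and 1 was lower (*Gpc1*, 13 and 7 UMIs), with a median of -0.01. The *Gpc1* interval (-2.70 to 0.30) included 0. These 4 genes lie below the 100 UMIs set for naming and were named after their values had been seen. The same holds for 2 genes past 2-fold in mREC-like cells alone (background 3.14% higher and 2.49% lower). *Sema3d* was higher there, at 2.68 (1.21 to 4.63, from 4 and 37 UMIs). *Thbs1* was lower, at -2.48 (-3.35 to -1.70, from 66 and 17 UMIs), against a pooled -0.92.

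Of 18 tip cell and VEGF-responsive genes, 1 was at least 2-fold higher (*Nid2*, a basement membrane gene, 11.4 and 24.5 CPM), 0 were lower and the median was -0.09. *Dll4*, the Notch ligand of tip cells, had 116 and 93.2 CPM, *Esm1*, a tip cell marker that VEGF induces, 107 and 99.2 CPM, and *Angpt2*, an antagonist of the Tie2 receptor, 20.1 and 15.8 CPM. The pooled value of *Apln*, a peptide made by sprouting cells, joined opposite differences. mREC-like cells had 3.41 and 63.4 CPM (6 and 161 UMIs) and cREC-like cells 143 and 93.4 CPM, log2 ratios of 4.22 (3.07 to 5.69) and -0.62 (-0.97 to -0.26), and this gene was singled out after its values were seen. For comparison, 14 of 16 tested HIF target genes were at least 2-fold higher in the pooled cells, with a median of 1.94. The 4 largest among those with at least 100 UMIs were *Adm*, *Slc16a3*, *Ankrd37* and *Bnip3*, whose log2 ratios ran from 3.06 to 3.33, beside 1.33 for *Vegfa*, 1.78 for *Pgf* and 1.13 for *Flt1*. The HIF target list was chosen with earlier results of these data known, so its count is a description and not a separate check. It holds the floxed genes *Egln1* and *Egln3*. It also holds *Slc2a1*, *Pgk1*, *Ldha*, *Slc16a3* and *Mif*, which the study had reported as higher in medullary endothelial cells of the *PHDTiEC* kidney. From the same libraries the study had also reported *Flt1* and *Vegfa* as higher in those cells, within leukocyte migration gene sets. The values of these members given here are therefore not independent of that report.

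Over the 56 combinations of class and library, the genes whose levels followed the receptors most closely included the endothelial genes *Mmrn2*, *Myct1* and *Robo4*. These points share libraries, free RNA and depth, and the correlations are given as a description. *Mmrn2*, *Myct1* and *Igfbp3* followed *Flt1* (Pearson r of log2(CPM + 10) 0.97 to 0.98), and *Meox1*, *Robo4* and *Shank3* followed both *Kdr* and *Flt4* (0.97 each). *Dhh*, *Fam181b* and *Stmn2* were closest to *Vegfc* (0.90 to 0.91) and *Hrct1*, *Filip1* and *Mcam* to *Pgf* (0.88 to 0.91). *Clybl*, *Idh2* and *Hspa9*, genes of mitochondrial proteins, were closest to *Vegfb* (0.88 to 0.89). The widespread genes had looser partners: *Wsb2*, *Srxn1* and *Adipor1* for *Vegfa* (0.74 to 0.79), *Chst14*, *Nes* and *Slc12a4* for *Nrp1* (0.85 each) and *Stx2*, *Itga5* and *Plod1* for *Nrp2* (0.75 to 0.83).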

How the data were processed

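The authors sequenced 3′ single-cell libraries (10x Genomics v3.1) of 1 *Cre-* and 1 *PHDTiEC* postischemic kidney, aligned the reads to mm10 with Cell Ranger (version 4 per the file headers) and deposited unfiltered UMI counts, not normalized, for every gene of each barcode. The deposited barcode and gene lists hold no measured values. Barcodes with 500 to 100000 UMIs, at least 200 genes and at most 50% mitochondrial counts were kept. They were clustered in Seurat 5.3.0 (R 4.3.3; 2000 variable genes without the members and the listed genes, 20 principal components, resolution 0.8), and clusters were named by hand from marker lists, their leading genes in view.

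Counts were summed per class and library and divided by the class total (CPM). Intervals are exact Poisson for CPM and Clopper-Pearson for shares and log2 ratios, at 95%. They were checked on counts simulated from the same Poisson model, without cells. That check cannot show how far the intervals are too narrow where UMIs are concentrated in few cells, as for *Pgf*. They cover counting error only. Ratios need at least 20 UMIs over both libraries, and called means at least 2-fold. Each library is 1 mouse, so no test was run. Members and lists were chosen with earlier results of these data known. Text names the members, *Egln1* to *Egln3*, listed genes past 2-fold with at least 100 UMIs (up to 4 each way) and the 3 genes most like each member, and says where others were added. Positions are from GENCODE vM21. A planned marker gene, and the planned exclusion of cells that used it, are not reported here.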

Additional observations from a re-analysis of the deposited data

Results flagged for a closer look

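With 1 library a genotype, the pairs below are differences in opposite directions whose own difference was not tested, and each value is the log2 ratio of CPM, the library labelled *PHDTiEC* over the *Cre-* library. They were listed because the counting interval lay above 0 in 1 class and below 0 in another.

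*Vegfa* was higher in mREC-like cells (1.59) and lower in the IC-like class with collecting duct markers (-0.22). *Pgf* was higher in mREC-like cells (5.40) and lower in TAL-like cells (-1.43, from 20 and 8 UMIs). *Vegfc* went the other way, lower in mREC-like cells (-0.94) and higher in injured PT-like cells (0.65, from 47 and 64 UMIs).

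Among the receptors, *Flt1* was higher in pericyte-like cells (2.97) and lower in TAL-like cells (-0.90), and *Kdr* was higher in fibroblast-like cells (3.58, from 1 and 26 UMIs) and lower in TAL-like cells (-0.74). *Flt4* was higher in injured PT-like cells (1.48, from 12 and 29 UMIs) and lower in cluster 23 (-0.59). *Nrp1* was higher in *Mrc1* macrophage-like cells (0.49) and lower in TAL-like cells (-0.41). *Cdh5* went the way of *Kdr* in fibroblast-like cells (2 and 43 UMIs). In TAL-like cells *Cdh5* (137 and 61 UMIs) went the way of *Flt1*, *Kdr* and *Nrp1*. *Nrp1* had 1677 and 1358 UMIs in those cells, far more than *Cdh5*. The part of endothelial RNA in these values was not tested. In *Mrc1* macrophage-like cells, where *Nrp1* was higher, *Cdh5* had 12 and 5 UMIs.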

How the results depend on the processing

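Of 144 recomputed log2 ratios of the 9 genes in endothelial-like cells, 123 stayed within the counting interval of the reported value, 21 moved outside it and 0 of those whose interval left out 0 changed sign. The mean over cells of counts per 10000 gave 2.38 for *Pgf*, 0.98 for *Flt1* (no longer 2-fold), 0.67 for *Kdr*, 0.53 for *Nrp1* and 0.40 for *Nrp2*. Picking cells by endothelial UMIs whatever their cluster (512 and 702 cells) gave 1.04 for *Vegfa* and 0.34 for *Kdr*. Subtracting the ambient profile (14.96% and 6.29% of endothelial-like UMIs by PT and neutrophil markers, an estimate that also counts doublets) gave 1.69 for *Vegfa*. Alternatives chosen after seeing the data were leaving out cells with a UMI of the 7 genes of other types (101 and 156 cells left; *Vegfa* 3.14, *Vegfc* -0.96, *Pgf* 3.08, *Flt1* 1.02, *Kdr* 0.65, *Nrp1* 0.59, *Nrp2* 0.11), leaving out cluster 23 (*Pgf* 3.36, *Vegfc* -0.75), equal weights for the 3 clusters (*Flt1* 1.06), leaving out unnamed clusters 4 and 13, and leaving out the 10% of barcodes with the highest doublet scores (*Vegfa* 1.99, *Kdr* 0.55, *Nrp1* 0.42). The first of these takes the place of a planned exclusion by a longer gene set that held these 7. The cause of these moves was not tested. Scrublet called 0 doublets at its own thresholds, which only 0.37% and 0.15% of its simulated doublets passed, so the planned removal gave no separate value. The mitochondrial limit of 20%, the 1000 UMI minimum, the complexity limit, other resolutions and other variable genes moved 0 of these ratios. The complexity limit and the other resolutions kept 401 and 536 endothelial-like cells, as reported. New clusters took the class that most of their cells had before, so these settings could hardly move a ratio and are not a separate check. TMM, and CPM without mitochondrial and ribosomal genes, also moved 0. The 5 list medians were recomputed with TMM and with a minimum of 50 UMIs. They stayed between the lower and upper quartile of the reported ratios of each list. TMM shifts every ratio by the same small amount, so it could hardly move a list median. With it the median over all genes went from -0.02 to 0.01. The counts of listed genes past 2-fold were not recomputed. Of other values, 24 of 133 levels, 12 of 72 shares by compartment and all 36 thinned shares of cells moved. Most of these moves came from 2 settings. Subtracting the ambient profile moved 11 levels and left 7, and moved 5 shares by compartment and left 3. Leaving out the highest doublet scores moved 10 levels and left 8, and moved 4 shares and left 4. The highest level of each gene and the ligand shares thus depend on free RNA and possible doublets. No paired analysis was possible because each genotype has 1 library. Ratios from under 20 UMIs over both libraries were not given at this depth.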
